A study of Mus musculus with 7 samples.

Results

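The enzymes of fatty acid oxidation and a group of targets of the nuclear receptor PPAR alpha were followed in whole kidneys of male mice that were wild type (WT) or were labelled as double knockouts of Hs3st3a1 and Hs3st3b1 (DKO). The group was a list of 35 named genes, chosen by function, although with earlier results of these data known, and all 35 were found among 48709 gene rows by the gene symbol that the deposited table gives. Of these genes 17 were taken as mitochondrial and 6 as peroxisomal, and the others were a regulator, an activating enzyme, carnitine acetyltransferase, an enzyme of both compartments, a peroxisome membrane factor, a pair of thioesterases and 5 further PPAR targets. All 35 passed the low-count filter that left 15394 genes for testing.

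Hs3st3a1 and Hs3st3b1 are sister genes for heparan sulfate 3-O-sulfotransferases, which modify the sugar chains of cell surface and matrix proteoglycans, and the study concerns the size and structure of the kidney after their loss. The WT group held 3 libraries, replicates 1, 2 and 4, and the DKO group held 4, replicates 1 to 4. Each library has its own kidney number in the labels and was treated as 1 animal, although the labels do not say so, and if that does not hold the p-values measure only the spread between these samples. The sources used here do not give age, strain or the deleted part of each gene.

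Long fatty acids are first activated to acyl-CoA and then carried into mitochondria as carnitine esters. There a cycle of dehydrogenation, hydration, a further dehydrogenation and thiolysis shortens them, and the electron transfer flavoprotein passes the electrons on to the respiratory chain. Peroxisomes run a parallel cycle with their own enzymes and handle very long and branched chains. PPAR alpha binds DNA as a partner of the retinoid X receptor and induces many genes of both cycles during fasting. The proximal tubule, the most abundant part of the kidney cortex, relies on fatty acids as fuel.

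Total counts were between 18330929 and 24259400 per library, and 1 read was worth 0.0408 to 0.0529 CPM after scaling with the trimmed mean of M-values (TMM), the unit of every level given here. Reads of Hs3st3a1 numbered 12 to 29 in the WT libraries and 0 to 3 in the DKO libraries, so it separated the groups as the labels do, whereas Hs3st3b1 had 56 to 112 reads in WT and 33 to 108 in DKO, which overlap, so the counts do not check the label for that gene. For the early proximal tubule all 10 markers were detected, at a summed level of 8526 to 9905 in WT and 9360.5 to 10790 in DKO. Of these 10, 2 were higher at an unadjusted p under 0.05 in edgeR, against 9.86% of all genes. The 5 markers of the tubule's last segment summed to 325 to 872 in WT and 393 to 639 in DKO. The 5 markers of the thick ascending limb summed to 6000.5 to 9672 in WT and 4233 to 6590.4 in DKO. Of these 5, 4 were lower at an unadjusted p under 0.05, against 11.3% of all genes. With a trend on exon length and GC content removed, 2 of the 5 had an unadjusted p under 0.05. Of the 10 early proximal tubule markers 1 then did, against 15.2% of all genes. In bulk tissue, fewer cells of a type and less RNA per cell cannot be told apart.

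With p-values adjusted over all genes at a threshold of 0.05, edgeR's quasi-likelihood test of DKO against WT called no member and no other gene (0 of 15394, or 0%; 3250 had an unadjusted p under 0.05). No member was called by DESeq2, which called 4.58% of the genes with an adjusted p, by limma-voom, which called 0%, or by edgeR without a low-count filter, which called 0.241%. At an unadjusted p under 0.05, 3 members were higher in DKO (Ppara, Acsl1 and Crat, against 9.86% of all genes) and 1 was lower (Etfb, against 11.3%). That is 11.4% of the 35, against 21.1% of all genes tested, and this order did not hold in every analysis. With DESeq2, run without a low-count filter, 7 members had an unadjusted p under 0.05, against 12.7% of all genes. In edgeR without WT replicate 2, 12 members did, against 22.8% of all genes. WT and DKO libraries did not overlap for 3 members (8.57%, against 17.4% of all genes), namely Acsl1 and Crat, which were higher in DKO (8.34% of all genes), and Etfb, which was lower (9.04%). By sign alone, 23 members were higher in DKO and 12 lower, which is 65.7% higher against 53.2% of all genes, and the median log2 fold change was 0.11 over the members and 0.036 over all genes. With a trend on exon length and GC content removed, 24 members were higher by sign, against 53.3% of all genes, and 5 had an unadjusted p under 0.05, against 15.2% of all genes.

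**Figure D1:**
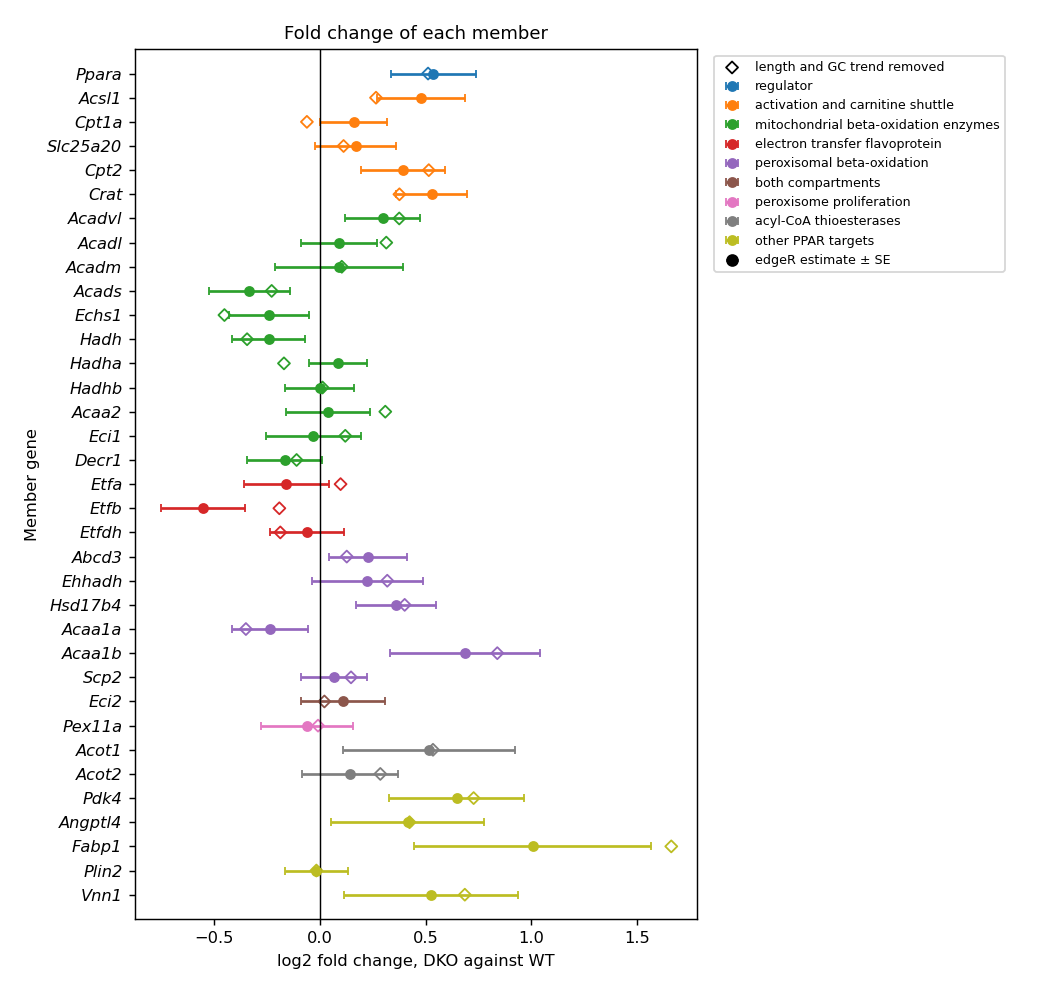
Log2 fold change of DKO against WT for each of the 35 members (x axis), ordered and coloured by role (y axis). Filled circles with bars are edgeR estimates ± SE and open diamonds are estimates after a trend on exon length and GC content was removed; Etfb lies lowest at -0.55 and Fabp1 highest at 1.01.

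The sequences before the transcription start are shown for the members with an unadjusted p under 0.05 that have an entry, and for Fabp1, the one member with a match to a spaced PPAR element. RefSeq promoters on GRCm38.p6 matched 29 of the 35 members. No entry was matched for Acaa2, Angptl4, Crat, Decr1, Hsd17b4 and Vnn1. Each line gives the 250 bases before the start, 5′ to 3′ on the gene's own strand, which is the plus strand in all. They lie at chr15:85735526-85735775 (Ppara), chr8:46470787-46471036 and chr8:46490716-46490965 (2 starts of Acsl1), chr7:43443822-43444071 (Etfb) and chr6:71199629-71199878 (Fabp1). The starts are those of the promoter set and differ from the GENCODE M21 gene starts. The Ppara window lies inside the gene's GENCODE span, which begins at 85734983. The second Acsl1 window lies inside the span of Acsl1, and the Fabp1 window runs past its GENCODE start at 71199827. Capitals mark matches, on either strand, to the half-site AGGTCA, the direct repeat AGGNCANAGGNCA, the GC box GGGCGG, the CCAAT box and TATAAA.
Ppara: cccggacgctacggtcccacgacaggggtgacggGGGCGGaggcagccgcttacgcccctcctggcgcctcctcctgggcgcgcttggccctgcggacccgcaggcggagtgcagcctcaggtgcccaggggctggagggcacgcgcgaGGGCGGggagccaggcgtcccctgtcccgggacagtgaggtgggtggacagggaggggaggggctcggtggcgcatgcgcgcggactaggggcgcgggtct
Acsl1 first start: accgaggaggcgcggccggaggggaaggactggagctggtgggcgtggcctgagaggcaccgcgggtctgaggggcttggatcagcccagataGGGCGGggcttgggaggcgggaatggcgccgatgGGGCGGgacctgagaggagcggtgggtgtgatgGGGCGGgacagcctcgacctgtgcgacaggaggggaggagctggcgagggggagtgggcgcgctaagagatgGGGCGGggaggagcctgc
Acsl1 second start: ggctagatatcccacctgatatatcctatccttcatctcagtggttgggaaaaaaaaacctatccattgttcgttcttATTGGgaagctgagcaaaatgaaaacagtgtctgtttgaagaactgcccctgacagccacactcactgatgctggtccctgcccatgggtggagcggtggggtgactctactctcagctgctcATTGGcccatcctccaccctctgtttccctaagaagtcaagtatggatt
Etfb: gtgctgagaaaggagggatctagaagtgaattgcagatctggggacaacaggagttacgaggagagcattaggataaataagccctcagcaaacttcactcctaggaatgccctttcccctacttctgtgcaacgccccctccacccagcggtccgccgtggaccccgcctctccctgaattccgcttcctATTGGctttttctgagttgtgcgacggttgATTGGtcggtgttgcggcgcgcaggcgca
Fabp1: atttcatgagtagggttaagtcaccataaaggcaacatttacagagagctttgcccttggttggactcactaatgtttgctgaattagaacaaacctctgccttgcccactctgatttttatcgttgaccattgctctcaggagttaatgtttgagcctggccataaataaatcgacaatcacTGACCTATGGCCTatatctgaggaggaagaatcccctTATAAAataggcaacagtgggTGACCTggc

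In Fabp1 the direct repeat, the arrangement that PPAR and its partner bind, lies 67 to 55 bases before the start on the minus strand and overlaps 1 of its 2 half-sites, and a TATAAA lies 30 to 25 bases before the start. The repeat was found in 0.381% of the 32851 promoters of the same length (250 bases before to 50 after the start), and among members in Fabp1 alone. The stricter form AGGTCANAGGTCA was found in 0.0396% of promoters and in 0 members. The half-site alone was found in 7 of 29 members (Acadm, Acadvl, Cpt1a, Echs1, Fabp1, Plin2 and Scp2) and in 16.3% of promoters. In Ppara and the first start of Acsl1 the marked letters are GC boxes (2 and 4), and in the second start of Acsl1 and in Etfb they are CCAAT boxes on the minus strand (2 each). GC boxes were found in 21 of 29 members and 35.7% of promoters, and CCAAT boxes in 14 of 29 members and 37.4% of promoters. A member was counted when any of its starts matched, whereas the percentages are over single promoters. A member with more than 1 start, such as Acsl1, had more chances, so the counts and percentages are not like for like. A match describes letters in this window only.

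Ppara, which encodes the receptor itself, was among the scarcest members. Ppara (ENSMUSG00000022383, chromosome 15, positions 85734983 to 85802819 on GRCm38, plus strand) was at 9.08, 13.2 and 11.6 CPM in WT replicates 1, 2 and 4. In DKO replicates 1 to 4 it was at 18.8, 16.4, 18.0 and 12.3 CPM. DKO replicates 1 to 3 lay above every WT library, while DKO replicate 4 lay below WT replicate 2. Its fold change was 1.45 (log2 0.54, SE 0.20, edgeR unadjusted p 0.0216, adjusted p 0.184). Per kilobase of its main transcript it stood at 4.16 CPM, the lowest of the 35, against 662 CPM for Acadm, the highest. The unadjusted p was 0.11 at its highest, over 14 alternative analyses, of which 11 gave a value under 0.05. The exceptions were the analyses without WT replicate 1, without DKO replicate 1 and with replicate numbers as a block.

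Genes that activate fatty acids and move them as carnitine esters were higher in DKO by sign (5 of 5, against 53.2% of all genes). Their median log2 fold change was 0.39, and 2 of them (40%) had an unadjusted p under 0.05, against 21.1% of all genes. With the length and GC trend removed, 4 of 5 were higher and the median was 0.27. The exception was then Cpt1a, at -0.062 (unadjusted p 0.705). Acsl1 (ENSMUSG00000018796, chromosome 8, positions 46471037 to 46536051, plus strand), the long-chain acyl-CoA synthetase, was at 236, 220.2 and 151 CPM in WT and 359.5, 253, 268.5 and 248 CPM in DKO. Even the lowest DKO libraries, replicates 2 and 4, lay above WT replicate 1, though narrowly. The fold change was 1.39 (log2 0.48, SE 0.21, edgeR unadjusted p 0.0405, adjusted p 0.22). Acsl1 has 10483 nt of merged exons, and genes of that length tended to be higher in DKO. With the length and GC trend removed its log2 fold change was 0.27 (unadjusted p 0.251). It was 0.30 without WT replicate 4 (unadjusted p 0.147) and 0.34 without DKO replicate 1 (unadjusted p 0.117).

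Crat (ENSMUSG00000026853, chromosome 2, positions 30400471 to 30415813, minus strand) encodes carnitine acetyltransferase, which exchanges acetyl groups between CoA and carnitine in mitochondria and peroxisomes. It was at 109, 107.5 and 81.9 CPM in WT and 149.9, 152.5, 151.7 and 120.2 CPM in DKO. The groups did not overlap, and DKO replicates 1 to 3 were nearly equal. The fold change was 1.44 (log2 0.53, SE 0.17, edgeR unadjusted p 0.00923, adjusted p 0.164). Crat was the only member with an unadjusted p under 0.05 in all 14 alternatives (0.00475 to 0.0326), although its adjusted p stayed between 0.0664 and 0.494. Cpt2, the inner membrane carnitine palmitoyltransferase, was at 318, 412 and 257 CPM in WT and 493, 422, 455 and 356.5 CPM in DKO, with DKO replicate 4 inside the WT range (log2 fold change 0.39, SE 0.20, unadjusted p 0.0751). With the length and GC trend removed Cpt2 was at 0.52 (unadjusted p 0.0232, adjusted p 0.28). Without WT replicate 4 it was at 0.24 (unadjusted p 0.245). Cpt1a, the outer membrane enzyme that sets the rate of entry, averaged 220.6 ± 12.1 CPM in the 3 WT libraries and 246.5 ± 30.6 CPM in the 4 DKO libraries (± SD), a difference smaller than the spread in DKO. Slc25a20, the carrier that exchanges acylcarnitine for carnitine, was at 129 ± 23.0 and 145 ± 26.9 CPM.

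**Figure D2:**
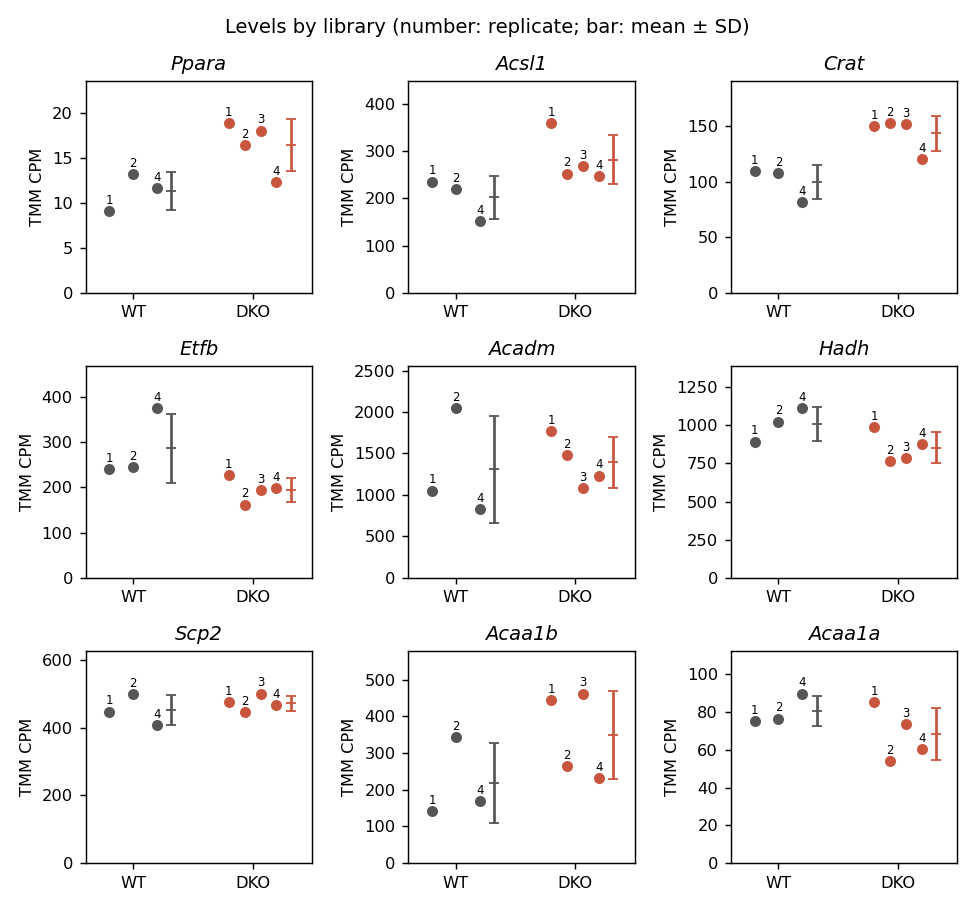
TMM-scaled CPM (y axis, from 0) of 9 members in each WT and DKO library; points carry the replicate number and bars give mean ± SD (n = 3 and 4). Groups are apart for Acsl1, Crat and Etfb and overlap for the others, with WT replicate 2 far above the other WT libraries for Acadm and Acaa1b.

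The 11 enzymes of the mitochondrial cycle itself had a median log2 fold change of -2e-04. By sign 5 were higher and 6 lower, against 53.2% higher among all genes. An unadjusted p under 0.05 was reached by 0 of the 11, against 21.1% of all genes. Acadm, which opens the cycle on medium-length chains, was at 1051, 2043 and 829 CPM in WT and 1773, 1482.5, 1080 and 1233 CPM in DKO. The single highest value was WT replicate 2, and the other WT libraries lay below all DKO libraries. Its log2 fold change was 0.090 (SE 0.30) with all libraries and 0.56 without WT replicate 2 (unadjusted p 0.0454, adjusted p 0.211, the lowest of the alternatives, whose highest was 0.942). Hadh, the short-chain hydroxyacyl-CoA dehydrogenase, was at 893, 1023 and 1110 CPM in WT and 987.5, 763, 783 and 877.5 CPM in DKO. Here DKO replicate 1 lay inside the WT range and the other DKO libraries below it (log2 fold change -0.24, SE 0.17, unadjusted p 0.19).

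Within the acyl-CoA dehydrogenases, which take the first step, the log2 fold change was 0.30 for Acadvl (very long chains), 0.09 for both Acadl (long) and Acadm (medium) and -0.33 for Acads (short). Acadvl averaged 280.4 ± 49.3 CPM in the 3 WT libraries and 345 ± 39.4 CPM in the 4 DKO libraries (± SD), and Acads at 96.7 ± 16.0 and 76.7 ± 16.4 CPM. The SE of each was between 0.18 and 0.30, and the differences between these enzymes were not tested. Echs1, the short-chain hydratase, was at 631 ± 55.7 and 534 ± 105.5 CPM. Hadha and Hadhb encode the subunits of the trifunctional protein that is built for long chains, and Hadha was among the most even members. It was at 121, 125 and 119 CPM in WT and 127, 127, 138 and 124.5 CPM in the DKO libraries, with a log2 fold change of 0.087 (SE 0.14), and Hadhb at 165 ± 29.1 and 165 ± 12.4 CPM. The thiolase Acaa2 was at 755 ± 74.7 and 775 ± 159 CPM. Eci1 and Decr1, which prepare unsaturated chains for the cycle, had log2 fold changes of -0.031 and -0.17, both within 1 SE of 0.

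All 3 genes of the electron transfer flavoprotein and its dehydrogenase were lower in DKO by sign, while 53.2% of all genes were higher. Of these 3, 1 had an unadjusted p under 0.05 (33.3%, against 21.1% of all genes). With the length and GC trend removed, 0 of them did, and Etfa was higher by sign, at 0.098 (unadjusted p 0.593). Etfb (ENSMUSG00000004610, chromosome 7, positions 43444083 to 43457800, plus strand), the beta subunit, was at 240.4, 245 and 375 CPM in WT and 227, 162, 193 and 199 CPM in DKO. The groups did not overlap, although DKO replicate 1 was close to WT replicates 1 and 2, and WT replicate 4 was far above the rest. The fold change was 0.681 (log2 -0.55, SE 0.20, edgeR unadjusted p 0.0174, adjusted p 0.178). Etfb is short, with 1164 nt of exons. The genes tested were divided into 20 classes by exon length, and the class with a median of 1069 nt had a median log2 fold change of -0.35. With the length and GC trend removed Etfb was at -0.19 (unadjusted p 0.215). Without WT replicate 4 it was at -0.32 (unadjusted p 0.0926), and without DKO replicate 2 at -0.47 (unadjusted p 0.0535). Its partner Etfa, the alpha subunit, was at 347, 519 and 478 CPM in WT and 504, 337, 395 and 368 CPM in DKO. Etfdh, which hands the electrons to ubiquinone, was at 275, 359 and 339 CPM in WT and 366, 328, 287 and 263 CPM in DKO. Both overlapped between groups.

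**Figure D3:**
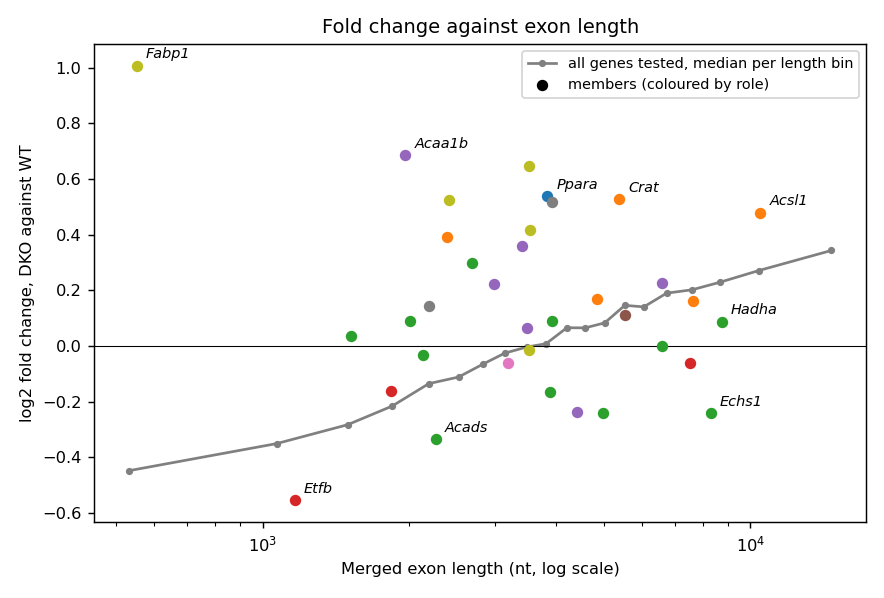
Log2 fold change of DKO against WT (y axis) against merged exon length in nt (x axis, log scale) for the 35 members, coloured by role as in the plot of fold changes. The grey line joins the medians of 20 length classes of all genes tested, from -0.45 at 532.5 nt to 0.34 at 14648 nt; Etfb and Acsl1 lie near its ends, and Fabp1 lies above it.

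Peroxisomal enzymes had a median log2 fold change of 0.23, and 5 of 6 were higher in DKO by sign, against 53.2% of all genes. An unadjusted p under 0.05 was reached by 0 of them, against 21.1% of all genes. Acaa1b, a thiolase of the peroxisomal cycle, was at 141, 343 and 169 CPM in WT and 445, 264, 462 and 231 CPM in DKO. WT replicate 2 lay between the DKO libraries, and the other WT libraries lay below all of them. The log2 fold change was 0.69 (SE 0.35, edgeR unadjusted p 0.0807, adjusted p 0.286) and 1.16 without WT replicate 2 (unadjusted p 0.00428, adjusted p 0.113, the lowest of the alternatives, whose highest was 0.653). Its close copy Acaa1a was at 75.3, 76.6 and 89.8 CPM in WT and 85.1, 54.0, 73.8 and 60.3 CPM in DKO, or -0.24 as log2 fold change (SE 0.18). The ratio of Acaa1b to Acaa1a reads was 1.88, 4.47 and 1.89 in WT and 5.23, 4.89, 6.27 and 3.82 in DKO, so only WT replicate 2 came within the DKO range. Their main transcripts align over 1428 nt at 96.6% identity, so reads could be divided between the copies, and both values are uncertain to that extent.

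Scp2, the thiolase and sterol carrier for branched chains, was the most abundant peroxisomal member and varied little. It was at 448, 499 and 409 CPM in WT and 477, 447, 501 and 467 CPM in the DKO libraries, with a log2 fold change of 0.065 (SE 0.16). Hsd17b4, a multifunctional enzyme with hydratase and dehydrogenase activity, averaged 240.1 ± 55.6 CPM in the 3 WT libraries and 308 ± 35.7 CPM in the 4 DKO libraries (± SD), with a log2 fold change of 0.36 (SE 0.19) and an unadjusted p of 0.0843, or 0.0448 with the length and GC trend removed. Ehhadh, the bifunctional enzyme for straight chains, was at 202 ± 77.7 and 236 ± 55.6 CPM. Abcd3, the transporter of acyl-CoA across the peroxisomal membrane, was at 262 ± 63.9 and 307 ± 15.3 CPM. Eci2, an isomerase of both compartments, had a log2 fold change of 0.11 (SE 0.20) and Pex11a, a factor of peroxisome division, one of -0.061 (SE 0.22).

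Set side by side, the median level of peroxisomal members against that of mitochondrial members spread more widely over the WT libraries than over the DKO libraries. The 2 spreads were not compared by a test. Each member was expressed as log2 CPM minus its WT mean, and the median of these values was taken in each library. The mitochondrial median was -0.10, 0.090 and 0.071 in WT and 0.19, -0.069, -0.12 and -0.12 in DKO. The peroxisomal median was -0.11, 0.37 and -0.25 in WT and 0.40, 0.25, 0.20 and 0.11 in DKO. The peroxisomal minus mitochondrial difference was therefore -0.0080, 0.28 and -0.32 in WT and 0.21, 0.32, 0.32 and 0.23 in DKO. All 4 DKO libraries lay within 0.21 to 0.32, and WT replicate 2 lay inside that range while WT replicates 1 and 4 lay below it. Between the fitted medians the difference was 0.23, and it was 0.51 without WT replicate 2 and 0.087 without WT replicate 4. The SD of the per-library difference within groups, pooled over WT and DKO, was 0.20. A score over chosen members was given no p-value.

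**Figure D4:**
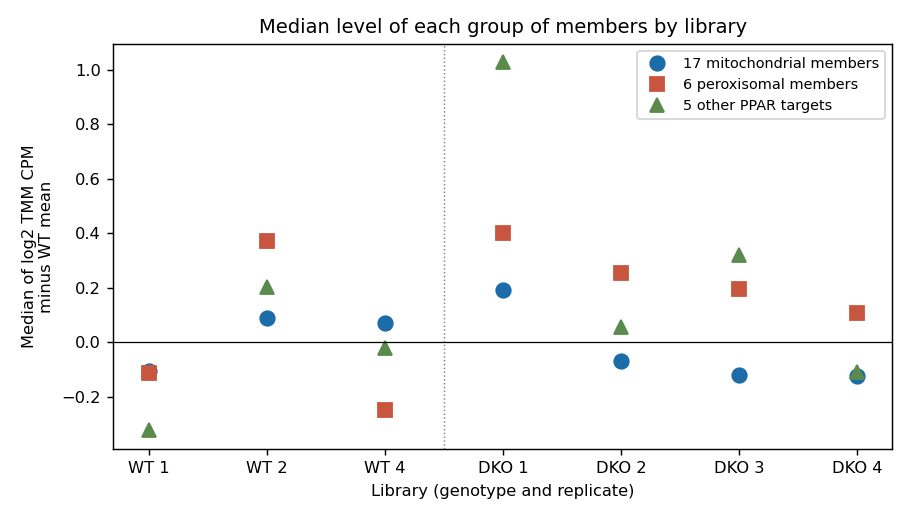
Median over each group of members of log2 TMM CPM minus the WT mean (y axis) in each library (x axis), for the 17 mitochondrial members, the 6 peroxisomal members and the 5 other PPAR targets. Peroxisomal medians lie above mitochondrial ones in all 4 DKO libraries and in WT replicate 2, and the target median of DKO replicate 1 is highest at 1.03.

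The acyl-CoA thioesterases Acot1 and Acot2, which release free fatty acids in the cytosol and in mitochondria, did not separate the groups. Acot1 was at 20.2, 39.9 and 14.2 CPM in WT and 57.8, 29.2, 33.0 and 21.7 CPM in DKO, or 0.52 as log2 fold change (SE 0.41, unadjusted p 0.237). Acot2 was at 493, 540.1 and 320 CPM in WT and 549, 588, 372 and 481 CPM in the DKO libraries, with a log2 fold change of 0.14 (SE 0.23). In both, WT replicate 4 was lowest of all libraries. The pair lies side by side on chromosome 12 and its main transcripts align over 1337 nt at 93.8% identity, so its reads too may be divided between copies.

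Of the 5 other PPAR targets 4 were higher in DKO by sign, against 53.2% of all genes, with a median log2 fold change of 0.52. Of these 5 targets 0 had an unadjusted p under 0.05, against 21.1% of all genes. Apart from Plin2, these were the 4 members with the widest DKO range, the highest library being 2.87 to 4.44 times the lowest. Vnn1, the pantetheinase vanin, was at 145, 305 and 168 CPM in WT and 454, 186, 387 and 158 CPM in DKO, so DKO replicates 2 and 4 lay among the WT libraries (log2 fold change 0.52, SE 0.41). Plin2, a coat protein of lipid droplets, was at 198, 219.6 and 204 CPM in WT and 228, 193, 207 and 192 CPM in DKO, a log2 fold change of -0.016 (SE 0.15). Pdk4, the kinase that shuts down pyruvate dehydrogenase, averaged 18.1 ± 2.32 CPM in the 3 WT libraries and 28.3 ± 12.5 CPM in the 4 DKO libraries (± SD). Angptl4, a secreted inhibitor of lipoprotein lipase, was at 55.2 ± 17.8 and 73.7 ± 31.4 CPM. The 8 adipocyte markers, all detected, summed to 824, 213 and 658 CPM in WT and 1178, 520.3, 482 and 433 CPM in DKO, lowest in WT replicate 2 and highest in DKO replicate 1, and Lep was at 0 reads in DKO replicate 1. Plin2, Pdk4 and Angptl4 are also expressed in fat, and the part of fat tissue in these values was not tested.

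Fabp1, the liver-type fatty acid binding protein, had the largest log2 fold change among members, 1.01, at a low level and with a large error (SE 0.56, unadjusted p 0.104). The value was 0.38 without DKO replicate 3 (unadjusted p 0.381), 0.37 with replicate numbers as a block and 1.66 with the length and GC trend removed (unadjusted p 0.0174). It was at 1.71, 1.64 and 3.60 CPM in WT and 4.53, 2.26, 9.79 and 2.20 CPM in DKO. DKO replicates 2 and 4 lay below WT replicate 4, and DKO replicate 3 was highest. Its promoter is the one printed above that holds both the direct repeat and a TATAAA. The 6 markers of hepatocytes did not all follow that pattern. In DKO replicate 3 Alb was at 15.0 CPM, against 4.20 to 7.97 CPM in the others, and Apoa1 at 4.46 CPM, against 0.49 to 1.63 CPM. Ahsg had 22 reads there, 0 in WT replicates 2 and 4 and DKO replicates 1 and 2, and 1 each in WT replicate 1 and DKO replicate 4. Fgb was at 5.33 CPM there, against 1.75 to 5.11 CPM in the others, and Apoh was lowest of all libraries there at 0.871 CPM. The summed level of the 6 markers was also lowest in DKO replicate 3 (93.4 CPM, against 209.6 to 470.5 in the other DKO libraries and 286 to 572 in WT), and Ttr, which makes up most of that sum, was lowest there. The part of liver RNA in the Fabp1 value was not tested.

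Within each genotype, the same library was highest for most members, and in DKO the same library was lowest for most. WT replicate 2 was the highest WT library for 25 of 35 members, against 31.6% of all genes, and DKO replicate 1 was the highest DKO library for 26 of 35, against 28.4% of all genes. DKO replicate 4 was the lowest DKO library for 22 members, against 21.6% of all genes. In WT no library was lowest for most members: replicates 1 and 4 were lowest for 16 each, against 29.4% and 37% of all genes. WT replicate 2 was highest of the WT libraries for 5 of the 6 peroxisomal and 11 of the 17 mitochondrial members, and DKO replicate 1 was highest of the DKO libraries for 15 of the 17 mitochondrial and 3 of the 6 peroxisomal members, DKO replicate 3 being highest for the other 3. In 6 members the highest WT library was at least 2 times the lowest (Acadm, Ehhadh, Acaa1b, Acot1, Fabp1 and Vnn1), a spread that 20.2% of all genes tested had as well, and WT replicate 2 was the highest in 5 of them. The most even members were Hadha, Plin2 and Scp2, whose highest library was at most 1.22 times the lowest within a genotype.

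**Figure D5:**
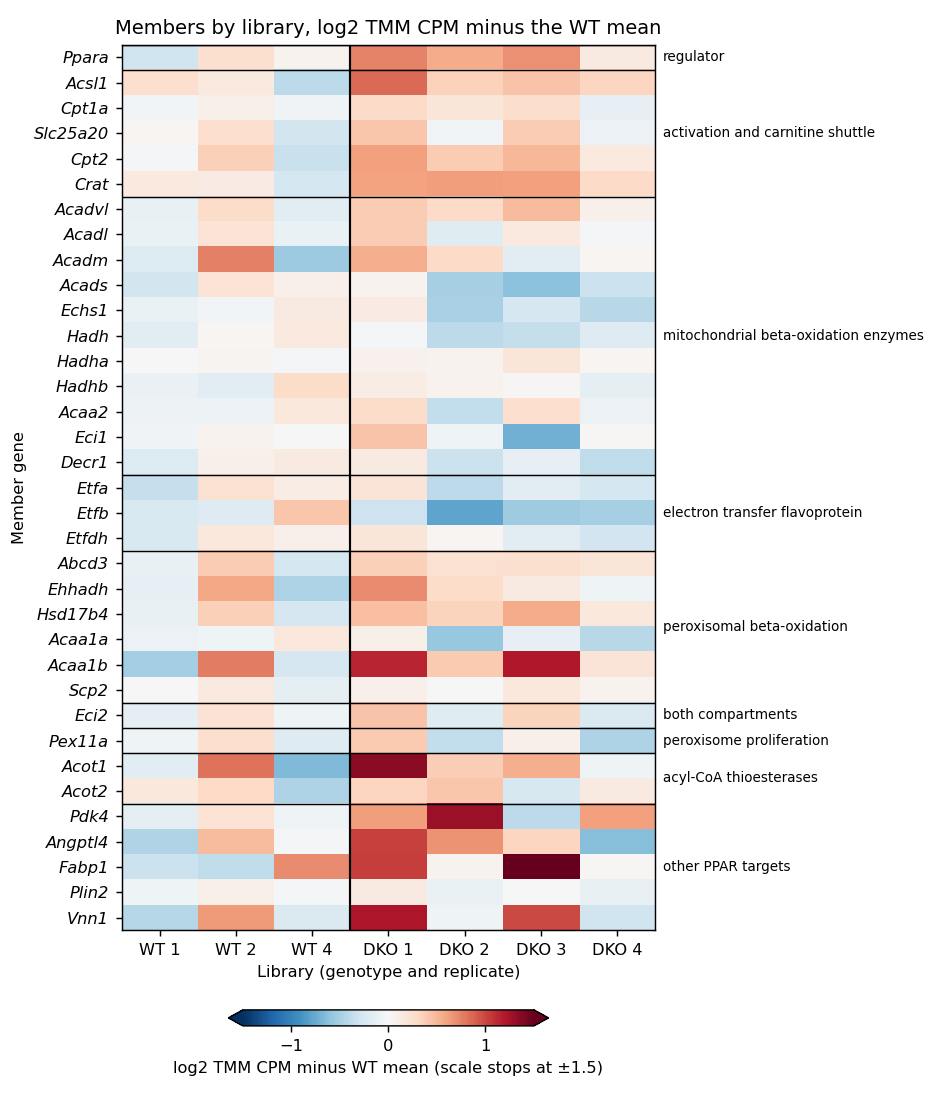
Log2 TMM CPM minus the WT mean (colour, scale stopped at ±1.5) for the 35 members (rows, grouped by role) in 7 libraries (columns). WT replicate 2 and DKO replicates 1 and 3 are red for Acaa1b, Acot1 and Vnn1, while Etfb is blue in all DKO columns.

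The number of members with an unadjusted p under 0.05 depended on WT replicate 2 above all other libraries. Without it, 12 of 35 reached that level, 11 higher and 1 lower, against 22.8% of all genes in the same fit. The added members were Cpt2, Acadvl, Acadm, Abcd3, Ehhadh, Hsd17b4, Acaa1b and Acot1, all higher in DKO. Without WT replicate 4 the count was 2 (10.1% of all genes), and without DKO replicate 4 it was 7 (19.3% of all genes). No member passed adjustment over all genes in any of these fits. In WT replicate 2 the adipocyte sum was the lowest of all libraries and the sum of last-segment proximal tubule markers the highest (872 CPM, against 325 and 470 CPM in the other WT libraries). The part of these cell types in the members' values was not tested.

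Beyond the members, 91 genes of the same pathways were examined and 88 were tested, of which 15 were higher and 11 lower at an unadjusted p under 0.05. This is 29.5%, against the 21.1% of all genes. None passed adjustment in edgeR, and DESeq2 called 5 of them, against 4.58% of all genes. Among 20 other peroxisomal lipid enzymes 3 were higher and 4 lower at that level (35%). Acox3, an oxidase of branched chains, had a log2 fold change of 0.50 (SE 0.15), but 0.18 (unadjusted p 0.282) with the length and GC trend removed. Nudt19, a CoA diphosphatase, was at 305, 369 and 355 CPM in WT and 232, 237, 234 and 232 CPM in DKO, a log2 fold change of -0.55 (SE 0.15, DESeq2 adjusted p 0.0179). With the length and GC trend removed Nudt19 was at -0.47 (unadjusted p 0.00597), in a fit that called 0 genes.

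Of 14 other mitochondrial fatty acid genes 13 were tested, 3 being higher and 3 lower at an unadjusted p under 0.05 (46.2%, against 21.1% of all genes). The thioesterase Acot13 (log2 fold change -0.85, SE 0.23, DESeq2 adjusted p 0.026) and malonyl-CoA decarboxylase, Mlycd (-0.69, SE 0.21), were lower, and the dehydrogenase Acad11 (0.49, SE 0.16) was higher. Acot13 has 744 nt of exons, and its value was -0.35 (unadjusted p 0.0401) with the length and GC trend removed. Acad11 was then at 0.33 (unadjusted p 0.0782) and Mlycd at -0.67 (unadjusted p 0.00566). WT replicate 4 was far above the other WT libraries for Acot13 (633 CPM, against 353 and 380) and Mlycd (87.4 CPM, against 53.3 and 45.3). In both genes all DKO libraries lay below all WT libraries.

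Among 18 further PPAR targets, 16 of which were tested, 5 were higher and 1 lower at an unadjusted p under 0.05 (37.5%, against 21.1% of all genes). Cyp4a31, a fatty acid omega-hydroxylase, was at 176, 287 and 121 CPM in WT and 450, 458.5, 523 and 251 CPM in the DKO libraries, with a log2 fold change of 1.11 (SE 0.32, DESeq2 adjusted p 0.028). Plin4, a lipid droplet protein, was higher (0.85, SE 0.32) and Fabp3, the heart-type binding protein, lower (-0.63, SE 0.23). With the length and GC trend removed Cyp4a31 was at 1.26 (unadjusted p 0.00436), Plin4 at 0.68 (unadjusted p 0.0503) and Fabp3 at -0.15 (unadjusted p 0.453). Fabp3 was at 78.4, 77.0 and 136 CPM in WT, replicate 4 being far the highest, and at 51.7 to 76.1 CPM in DKO. Cyp4a10, another omega-hydroxylase, was chosen after its values were seen. Cyp4a10 was at 214, 744 and 176.5 CPM in WT and 1634, 985, 2227 and 414 CPM in DKO. In Cyp4a10, DKO replicates 1 and 3 were highest and DKO replicate 4 was lowest in DKO, as in Acaa1b and Vnn1. Cyp4a genes are a cluster of related copies, so their reads may be divided among them, but their identity was not measured here.

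Of 12 nuclear receptors and cofactors 2 were higher and 1 lower at an unadjusted p under 0.05 (25%, against 21.1% of all genes). Lpin1, which acts with PPAR alpha as a coactivator, was at 28.1, 31.3 and 28.3 CPM in WT and 45.0, 60.0, 58.2 and 39.4 CPM in DKO, or 0.79 as log2 fold change (SE 0.18, adjusted p 0.163 in edgeR and, in DESeq2, adjusted p 0.0229). Ppargc1a, the coactivator PGC-1 alpha, was at 34.6, 33.4 and 32.7 CPM in WT and 40.8, 54.6, 48.8 and 49.1 CPM in the DKO libraries, with a log2 fold change of 0.53 (SE 0.15, adjusted p 0.163 in edgeR and, in DESeq2, adjusted p 0.0464). In both genes all DKO libraries lay above all WT libraries. With the length and GC trend removed Lpin1 was at 0.51 (unadjusted p 0.00849) and Ppargc1a at 0.47 (unadjusted p 0.00569). Esrra, an orphan receptor that works with PGC-1 alpha, was lower (-0.56, SE 0.22, or -0.63 with the trend removed, unadjusted p 0.0224). It was at 29.8, 29.6 and 56.3 CPM in WT, replicate 4 being far the highest, and at 23.6 to 27.8 CPM in DKO. Of 15 genes of peroxisome biogenesis 1 was higher and 0 were lower at that level (6.67%). By sign 4 were higher and 11 lower, against 53.2% higher among all genes, with a median of -0.059. In the citric acid cycle 1 of 12 was higher and 2 lower at that level (25%), with Sdha at 0.45 (SE 0.19), Sdhb at -0.45 (SE 0.18) and Fh1 at -0.70 (SE 0.25). Sdhb was at -0.30 (unadjusted p 0.0824) with the length and GC trend removed.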

How the data were processed

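Whole-kidney RNA of male mice was sequenced from unstranded Nextera XT libraries (3 WT and 4 DKO), per the labels' protocols. Reads were aligned with STAR 2.5.2a, per the submitters' processing notes, which also name edgeR, limma, DESeq2, GRCm38 and, with no stated role, GRCh38. The sources used here do not name the read counter or annotation release. The authors deposited raw read counts per gene, and these were tested. The deposited TMM-scaled CPM table (signal, counts divided by 1 constant per library) was used for gene symbols only. Of 48733 raw rows, 24 are transgene or spike-in sequences, and they were left out. They held 1.57e-05% to 7.52e-05% of a library's counts in WT and 0.000436% to 0.000697% in DKO, which do not overlap.

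The test was edgeR 4.0.16 (R 4.3.3; robust quasi-likelihood, TMM, filterByExpr with minimum count 10, two-sided, Benjamini-Hochberg over 15394 genes). SEs were derived from the F statistic. Levels are counts scaled with edgeR's TMM factors, and log2 levels use a prior count of 2. Counting error alone limits a count of 0 to 3 reads, which is 0.122 to 0.159 CPM. Chi-square values per gene between libraries were 40.8 to 207, so no library repeats another. Alternatives were DESeq2 1.42.0, limma-voom 3.58.1, median-ratio size factors, other low-count filters, a replicate block, a length and GC trend removed by loess, and leaving out each library. Exon lengths and positions came from GENCODE M21 (GRCm38). Length and GC values were missing for 25 genes, and levels per kilobase use the main (APPRIS principal) transcript. The tests were tested on simulated data. Members and lists were chosen with earlier results of these data known. Values in every library are given for members with an unadjusted p under 0.05 or groups that do not overlap, for Ppara, for the 2 most abundant members of each role and for paralog pairs, and Hadha and Fabp1 were added after their values were seen. Up to 3 genes with the smallest unadjusted p under 0.05 are named from each other list, and per-library values of those were given for a few. Some of the genes so chosen are not reported here.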

Additional observations from a re-analysis of the deposited data

Results flagged for a closer look

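In the DKO group of 4 libraries, Crat in replicate 4 stood apart at 120.2 CPM, with the other DKO libraries between 149.9 and 152.5 CPM. The gap to its nearest neighbour was 0.918 of the group's range, above Dixon's limit for 4 values. The rule was applied to 38 groups of DKO values, and chance flags about 1 in 20. Replicate 4 still lay above every WT library.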

How the results depend on the processing

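The number of genes called over all genes was 0 in the main test, 599 with DESeq2 (of 13067 genes with an adjusted p) and 66 with no low-count filter (of 27440), and 0 to 7 when a library was left out (1 without WT replicate 2, 7 without DKO replicate 1). In limma-voom, with 3146 genes at an unadjusted p under 0.05, the count was 0 as well. No member was called under any of the 14 alternatives, and the lowest adjusted p of a member was 0.0664, for Crat in DESeq2. Members at an unadjusted p under 0.05 numbered 4, against 21.1% of all genes. With DESeq2, which had no low-count filter here, they numbered 7, against 12.7% of all genes. With a library left out they numbered 2 to 12, against 10.1% to 24.9% of all genes. Leaving out a library moved the mitochondrial median between -0.073 and 0.049, the peroxisomal median between 0.055 and 0.49 and their difference between 0.087 and 0.51. The upper ends of the last 2 ranges came without WT replicate 2 and the lower ends without WT replicate 4. Adding Eci2 and Pex11a gave a peroxisomal median of 0.17. The sign of the fold change held under all alternatives for 21 members and turned under at least 1 for 14, none of them called. The groups share replicate numbers 1, 2 and 4, but deviations of same-numbered libraries correlated at -0.133, 0.164 and 0.135, so the numbers were not taken to pair the animals. With the replicate block 0 genes were called and the medians were 0.0084 and 0.28. In that fit 4 members had an unadjusted p under 0.05 (Pdk4 in place of Ppara), against 15.2% of all genes. Fabp1, at 1.64 to 9.79 CPM, was the member most limited by depth.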
